A study of Mus musculus with 8 samples.

Results

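Foxk1 peaks were listed around each of 4 mouse genes of autophagy, Ulk1, Map1lc3b, Gabarapl1 and Sqstm1, and no window was empty. Genes and windows were picked with earlier results of these data known, and peaks were then taken by position alone. The windows on the mm9 assembly were 140 kb wide for Ulk1 and 120 kb wide for the others. A peak belonged to a gene if its summit lay in the window of that gene. This gave 19 peaks of the 28933 in the list, of which 4 lay in the Ulk1 window, 4 in the Map1lc3b window, 6 in the Gabarapl1 window and 5 in the Sqstm1 window. Foxk1 is a forkhead transcription factor, and its binding was mapped by chromatin immunoprecipitation and sequencing in mouse embryonic fibroblasts (MEFs), cultured without treatment. The series has 3 libraries made with an antibody against Foxk1, 3 made with IgG, and 2 of input, which is chromatin sequenced without an antibody step. Genotype, strain and embryo age are not described here, and the culture medium was DMEM. The values came from one deposited list that sets Foxk1 against input. It holds 1 signal value and 1 q-value for each peak and nothing per library, so no value below carries a replicate error and no test was possible. No value for IgG was used, and enrichment that would also appear with a non-specific antibody cannot be told apart here. A peak list holds no expression values with which to check the cell type.

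Autophagy is the process by which a cell encloses part of its cytoplasm in a double membrane and delivers it to the lysosome. Ulk1 is the protein kinase that starts it when nutrients fall. Map1lc3b and Gabarapl1 encode members of the ATG8 family, small ubiquitin-like proteins that are joined to a lipid of the growing membrane. Sqstm1 encodes p62, a receptor that binds ubiquitinated cargo and, through ATG8 proteins, the membrane. Foxk1 has been described in nourished muscle cells as a repressor of autophagy genes.

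The windows are wider than the genes, and a peak inside one is not thereby assigned to the gene. Gene positions on mm9 were not used here. In the RefSeq annotation of GRCm38.p6, Ulk1 is 25.6 kb long, which is 18.3% of the width of its window. The lengths were 8.32 kb for Map1lc3b, 9.14 kb for Gabarapl1 and 10.7 kb for Sqstm1, or 6.94%, 7.62% and 8.89% of their windows. By order of protein-coding genes in that annotation, Ulk1 stands between Pus1 and Hscb, and Map1lc3b stands between Fbxo31 and Zcchc14 and overlaps Zcchc14. Gabarapl1 stands between Tmem52b and Klre1 and overlaps the noncoding gene 1700101I11Rik, and Sqstm1 stands between Mrnip and Mgat4b. Peaks of a window may therefore lie in or beside these neighbours.

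The RefSeq promoters of the 4 genes, from 250 bases before the start of the gene to 50 after it, are given to show which of them hold the letters that forkhead factors bind. They are on GRCm38.p6, and their positions were not converted to mm9, so they were not set against the mm9 peak positions. All are read 5′ to 3′ on the strand of the gene. Capitals mark TAAACA in Gabarapl1 and TGACNNNGC in Map1lc3b. The Ulk1 promoter is chr5:110810032-110810331 on the minus strand, and that of Map1lc3b is chr8:121590188-121590487 on the plus strand. The Gabarapl1 promoter is chr6:129532942-129533241 on the plus strand, and that of Sqstm1 is chr11:50210771-50211070 on the minus strand.
Ulk1: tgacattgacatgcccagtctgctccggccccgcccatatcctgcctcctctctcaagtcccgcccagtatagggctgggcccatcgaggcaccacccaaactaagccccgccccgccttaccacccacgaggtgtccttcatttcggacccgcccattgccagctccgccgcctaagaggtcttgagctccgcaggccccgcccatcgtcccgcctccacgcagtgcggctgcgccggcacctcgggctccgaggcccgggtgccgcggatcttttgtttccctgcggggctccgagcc
Map1lc3b: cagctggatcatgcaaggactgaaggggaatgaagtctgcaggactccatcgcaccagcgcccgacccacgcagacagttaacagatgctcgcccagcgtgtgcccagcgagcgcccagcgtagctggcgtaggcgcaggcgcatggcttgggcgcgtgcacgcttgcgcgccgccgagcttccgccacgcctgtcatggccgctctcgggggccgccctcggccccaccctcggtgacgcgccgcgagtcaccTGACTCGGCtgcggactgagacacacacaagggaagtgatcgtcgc
Gabarapl1: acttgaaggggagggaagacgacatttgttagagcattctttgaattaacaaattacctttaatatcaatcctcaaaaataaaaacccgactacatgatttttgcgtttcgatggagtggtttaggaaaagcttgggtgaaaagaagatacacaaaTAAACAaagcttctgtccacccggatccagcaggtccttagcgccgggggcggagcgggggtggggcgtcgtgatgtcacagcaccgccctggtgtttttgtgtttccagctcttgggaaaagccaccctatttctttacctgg
Sqstm1: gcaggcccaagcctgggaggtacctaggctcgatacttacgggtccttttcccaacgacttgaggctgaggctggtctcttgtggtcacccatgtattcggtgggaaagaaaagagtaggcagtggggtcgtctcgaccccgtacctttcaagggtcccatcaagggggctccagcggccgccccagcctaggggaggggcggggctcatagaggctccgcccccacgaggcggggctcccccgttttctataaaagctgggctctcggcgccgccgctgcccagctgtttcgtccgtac

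Of 6 sets of letters searched on both strands, the 4 promoters held 2. The forkhead core TAAACA occurred in Gabarapl1 alone, on the strand of the gene from 94 to 89 bases before the start. It occurs in 15.1% of the 27025 genes with a promoter sequence. The longer forkhead word GTAAACA, which contains TAAACA, was in none of the 4 and is in 4.05% of those genes. TGACNNNGC, the core of the antioxidant response element, occurred in Map1lc3b from base 5 to base 13 after the start, and is in 14.0% of genes. The E-box CACGTG, the same word preceded by GT and followed by AC, the form bound by the autophagy and lysosome regulator TFEB, and the AP-1 word TGANTCA were in none of the 4. Their shares over all genes were 8.09%, 0.37% and 8.97%. The Gabarapl1 promoter also had the lowest share of G and C among the 4, with 46.3%, against 63.3% for Sqstm1 and 68.0% for both Ulk1 and Map1lc3b. The median of all 32851 promoter sequences was 52.7%. A match is a description of the letters, not a site, and a missing match says only that the letters are not in these 300 bases.

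Other autophagy genes were taken from a list of 41, of which 33 had a promoter sequence. Of these 33, 3 held TAAACA: Ambra1, a regulator of the lipid kinase complex of autophagy, Atg4a, a protease that processes ATG8 proteins, and Wipi2, which binds the lipid that this kinase makes. None of the 33 held GTAAACA or the longer form of the E-box. CACGTG was in 6, namely Atg3, Atg5, Atg7 and Atg14 of the core machinery, the mitochondrial receptor gene Bnip3 and the lysosomal membrane gene Lamp1. TGACNNNGC was in Atg13, Ulk2 and Tax1bp1, and TGANTCA was in Tfe3. Over all 27025 genes, the shares were 15.1% for TAAACA, 4.05% for GTAAACA, 8.09% for CACGTG and 0.37% for its longer form. They were 14.0% for TGACNNNGC and 8.97% for TGANTCA. Whether the list differs from these shares was not tested. Peaks around these 41 genes were not analysed here.

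The Ulk1 window, chromosome 5 from 111160001 to 111300000 on mm9, held 4 peaks, and 1 of them stood above the rest. This peak, from 111237324 to 111237783, had a signal value of 57.7 and rank 1703 in the whole list, and it was the 136th strongest of 1946 peaks on chromosome 5. The signal values are the authors' own scores per peak, on a scale that the sources used here do not state. The other peaks had values of 22.0 (start 111199857), 21.3 (start 111268768) and 18.6 (start 111269350), at ranks 10491, 11032 and 13578. All 4 lay above the median of the list, 17.8, but only the strongest had the lowest q-value that the list contains, 0.00014. The authors' q-values of the others were 0.000715, 0.000771 and 0.000847. The strongest summit stood alone, 37.5 kb from the next on one side and 31.4 kb on the other, and the weakest pair was 582 bp apart.

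The Map1lc3b window, chromosome 8 from 124060001 to 124180000, held the strongest peak of the 4 loci. From 124097183 to 124097642, this peak had a signal value of 232 and rank 29 of 28933, and it was the second strongest on chromosome 8, where 1480 peaks were listed. Another peak, from 124109119 to 124109578, had a signal value of 170 and rank 92. Their summits were 11936 bp apart. Between them lay a far weaker peak, starting at 124102633, with a signal value of 14.6 and rank 19292, below the median of the list. The remaining peak of the window, from 124155682 to 124156141, had a signal value of 62.8 and rank 1379, and was 46.6 kb from its nearest neighbour. The weak peak had a q-value of 0.00143, and the other 3 had the lowest q-value. The Map1lc3b window thus combined a pair of peaks among the 100 strongest of the list with one from its weaker part.

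The other ATG8 family gene had a different layout. The Gabarapl1 window, chromosome 6 from 129430001 to 129550000, held 6 peaks, with no value above 61.8, or 3 regions when summits under 2000 bp apart were merged. Its 6 summits lay within 25.8 kb, in 2 groups and a single peak. The first group had 3 summits, from 129463605 by steps of 976 and 843 bp, with signal values of 61.8, 39.6 and 14.2 at ranks 1436, 3733 and 20055. The second group was a pair with summits at 129482711 and 129483132, only 421 bp apart, with signal values of 33.9 and 41.1 at ranks 5031 and 3454. The intervals of this pair overlapped by 39 bp, the only overlap among the 19 peaks. The single peak, starting at 129457090, had a signal value of 23.0 and rank 9751. The summits of the strongest and the second strongest peak in this window were 19527 bp apart. The lower-coordinate end of the first group and the higher-coordinate end of the pair had the highest values of their groups.

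The Sqstm1 window, chromosome 11 from 49960001 to 50080000, held 2 strong and 3 weak peaks. The strong ones lay next to each other, one from 50026434 to 50026893 (signal value 168, rank 103) and the other from 50023536 to 50023995 (signal value 126, rank 226). Their summits were 2898 bp apart, and both had the lowest q-value. The stronger of them was the 13th strongest of 2103 peaks on chromosome 11. The next value in the window was 18.9, at rank 13205, which is above the median of the list, 17.8. Nothing of intermediate strength between this value and the strong pair was listed there. The weakest peaks, with signal values of 11.9 and 11.5 at ranks 26493 and 28129, stood close to the lowest value in the list, 11.32. Their q-values were 0.00647 and 0.00898, against 0.00995 for the least certain peak of the list.

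**Figure D1:**
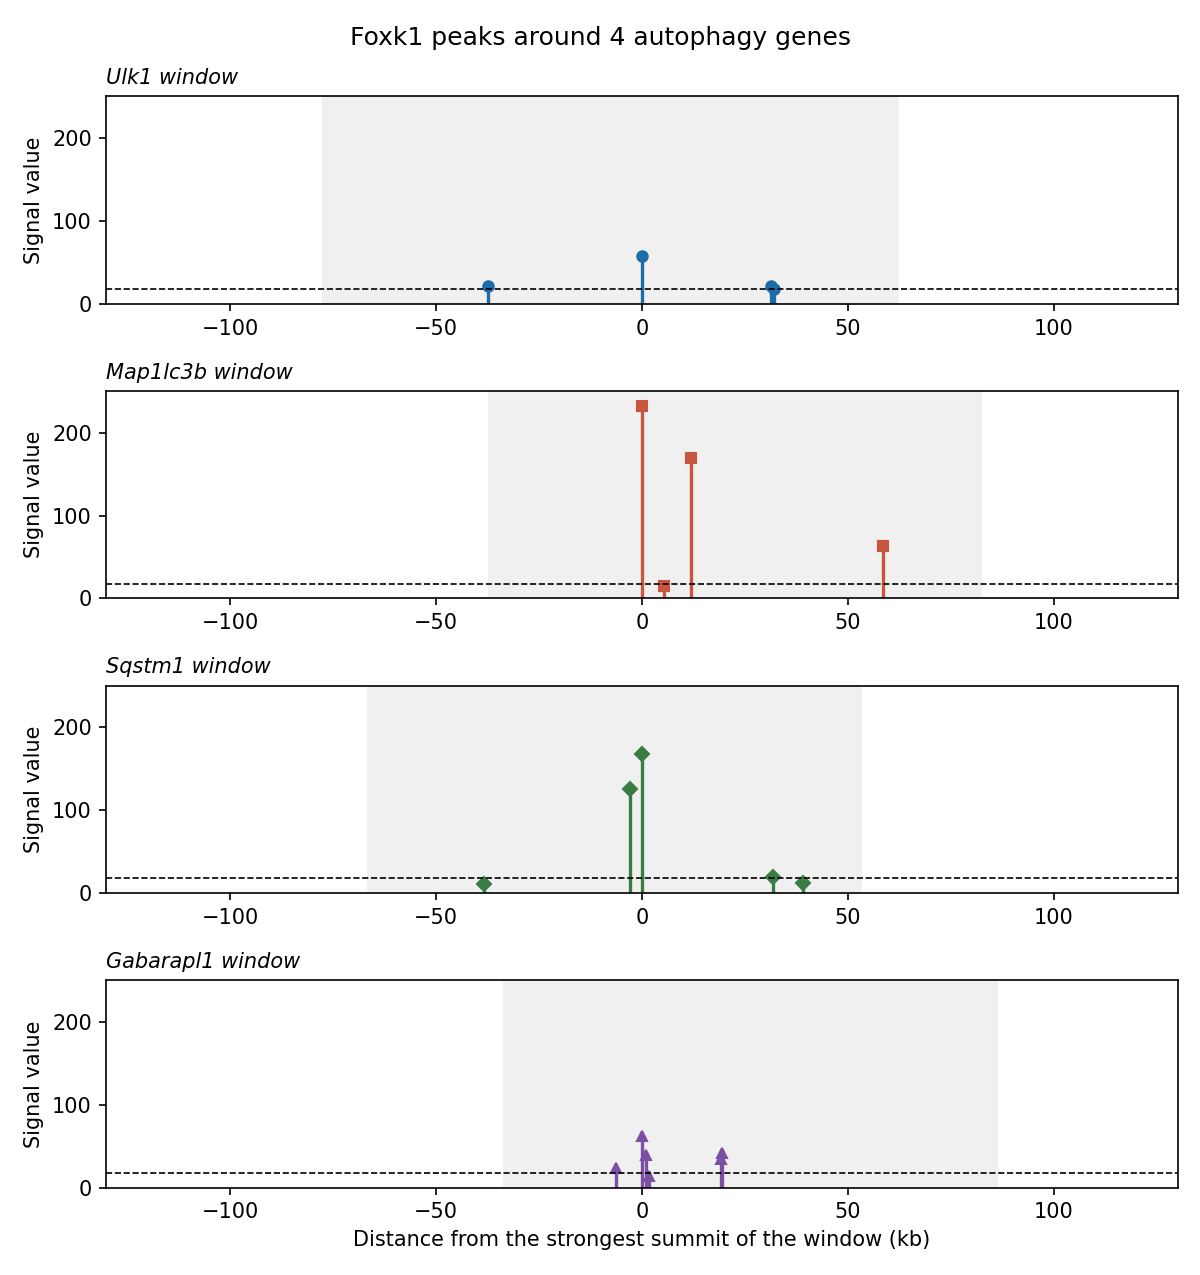
Signal value (vertical axis) of each of the 19 peaks against the distance of its summit from the strongest summit of the same window in kb (horizontal axis), with 1 panel per gene. Grey marks the extent of the window and the dashed line is the median of the whole list, 17.8. The strongest peaks reach 57.7 for Ulk1, 232 for Map1lc3b, 168 for Sqstm1 and 61.8 for Gabarapl1.

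By the strongest peak, the order of the genes was Map1lc3b (232), Sqstm1 (168), Gabarapl1 (61.8) and Ulk1 (57.7). By the number of listed peaks it was Gabarapl1 (6), Sqstm1 (5), and then Map1lc3b and Ulk1 (4 each). The order by number rests on counting close summits separately: with summits under 2000 bp apart merged it was Sqstm1 (5), Map1lc3b (4), and then Gabarapl1 and Ulk1 (3 each). With 1 value per peak, whether neighbours in these orders differ beyond replicate spread could not be tested. The medians within the windows were 116 for Map1lc3b, 36.8 for Gabarapl1, 21.6 for Ulk1 and 18.9 for Sqstm1. Sqstm1, second by its strongest peak, came last by the median, with 3 weak peaks among its 5.

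The 19 peaks had ranks from 29 to 28129 and signal values from 11.47 to 232, with a median of 33.9 and quartiles of 18.8 and 62.3. The whole list ran from 11.32 to 391, with a median of 17.8 and quartiles of 13.5 and 27.6. Signal values of 50 or more belonged to 7 of the 19, against 7.97% of all peaks. Every window held at least 1 of these, 3 of them in the Map1lc3b window and 2 in the Sqstm1 window. Values of 100 or more belonged to 4, all in the Map1lc3b and Sqstm1 windows, against 1.47% of all peaks. Values of 200 or more belonged to 1, against 0.2% of all. The lowest q-value was given to 8 of the 19 and to 12.3% of the list, and 15 of the 19 were at or above the median, as are 50% of all by definition. These counts describe 4 loci that were picked with earlier results of these data known.

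**Figure D2:**
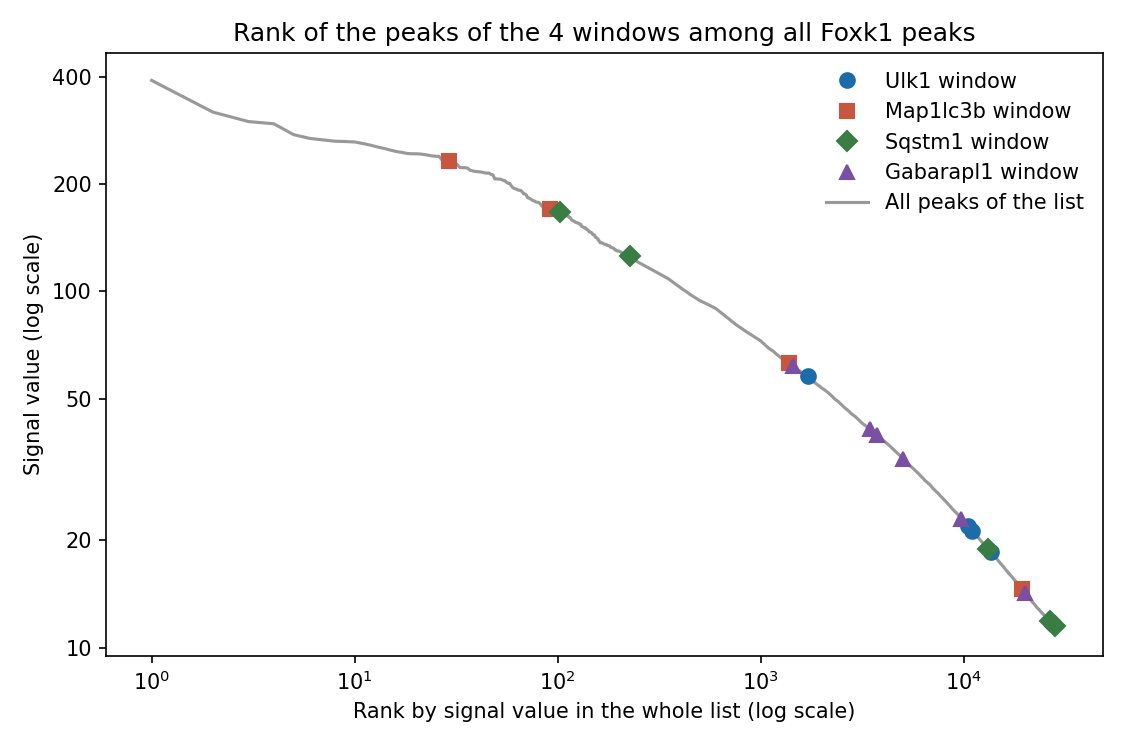
Signal value (vertical axis, log scale) against rank by signal value (horizontal axis, log scale) for the 19 peaks, with 1 symbol per gene window, on the curve of all 28933 peaks. The 2 strongest peaks from each of the Map1lc3b and Sqstm1 windows lie at ranks 29 to 226. The strongest peaks from the Gabarapl1 and Ulk1 windows lie at 1436 and 1703, and each window also has a peak at rank 13578 or beyond.

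The windows were next set against the genome, tiled in windows of the same width on chromosomes 1 to 19 and X. Tiles over the 4 loci were not left out, so each locus is part of its own background. Holding a peak was common: 50.1% of 18812 windows of 140 kb and 47% of 21948 windows of 120 kb held at least 1. On the chromosomes of the genes the shares were 52.1% for chromosome 5, 47.6% for chromosome 8, 52.8% for chromosome 6 and 61.3% for chromosome 11. That all 4 genes had a peak in their window is to be read against these shares. The 4 loci were picked with earlier results of these data known, and the tiles were not. Shares here and below therefore describe the loci and do not measure how unusual they are. The tiling includes long stretches without genes, whereas each of the 4 windows was placed on a gene, so the backgrounds are not matched for gene content. Any stretches without assembled sequence, which cannot hold a peak, were not left out of the tiling either.

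The number of peaks in each window was set against the same tiling. The Ulk1 window, with 4 peaks, was equalled or passed by 15.7% of windows of its width, and by 20.1% of those on chromosome 5. The shares were 12.6% for the 4 peaks of the Map1lc3b window (13.8% on chromosome 8) and 8.1% for the 5 of the Sqstm1 window (14.8% on chromosome 11). The 6 peaks of the Gabarapl1 window were equalled or passed by 5.03% of windows, and by 7.63% of those on chromosome 6. Many tiled windows were empty, and among only those with at least 1 peak, a background chosen after seeing the data, the shares were 31.3% for Ulk1, 26.9% for Map1lc3b, 17.2% for Sqstm1 and 10.7% for Gabarapl1. The Sqstm1 count ranged from 3 in a window narrowed by 25 kb on each side to 8 in one widened by 50 kb. The Gabarapl1 count was 9 in the widened window and 3 after merging. As densities, the Ulk1, Map1lc3b, Gabarapl1 and Sqstm1 windows had 28.6, 33.3, 50 and 41.7 peaks per Mb. Chromosomes 5, 8, 6 and 11 as wholes had 12.8, 11.3, 13.9 and 17.3 peaks per Mb.

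**Figure D3:**
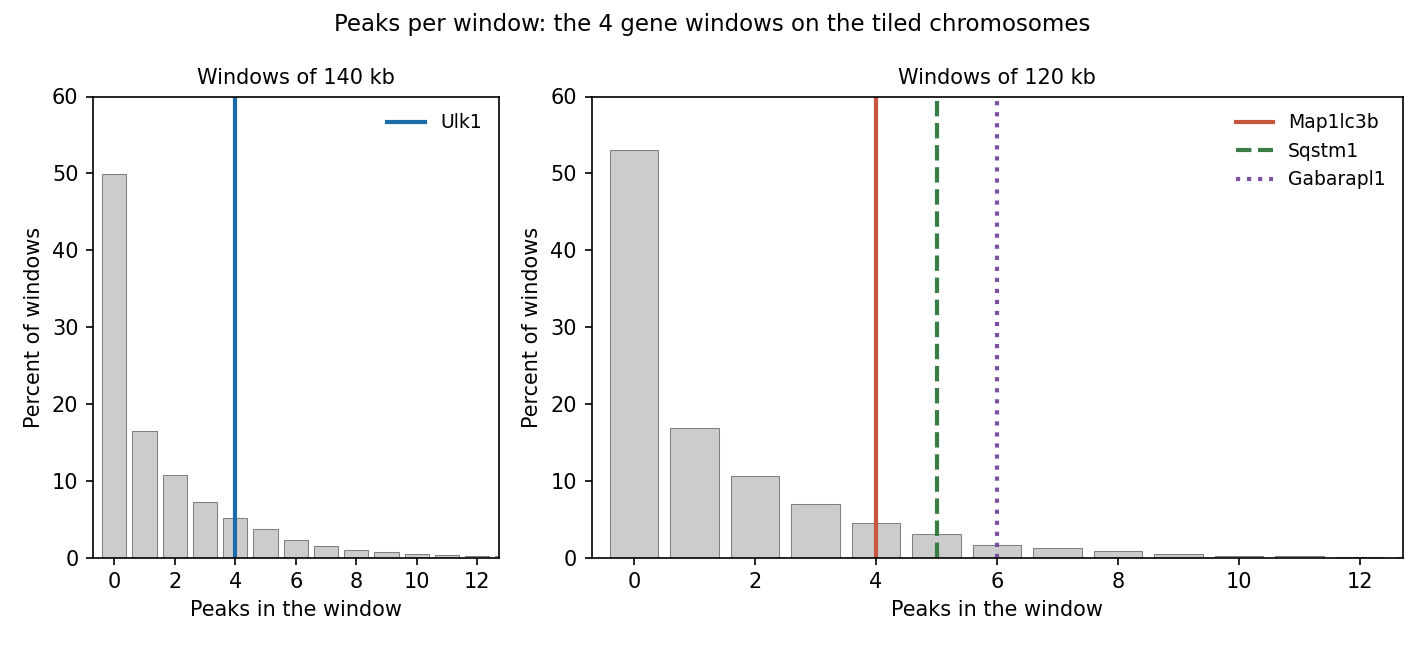
Share of windows in percent (vertical axis) by the number of peaks they hold (horizontal axis, shown up to 12 peaks), for windows of 140 kb (left) and 120 kb (right) tiled over chromosomes 1 to 19 and X. Vertical lines mark the Ulk1, Map1lc3b, Sqstm1 and Gabarapl1 windows, at 4, 4, 5 and 6 peaks, to the right of the tallest bar, which stands for windows without a peak.

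Among all tiled windows, those with as strong a peak were rarer than those with as many peaks for Ulk1, Map1lc3b and Sqstm1, and not for Gabarapl1. For Gabarapl1 the shares were close, 5.8% and 5.03%, with close summits counted separately in its window and in the tiles. Merging close summits was not tried on the tiles. A peak at least as strong as the highest of the Map1lc3b window occurred in 29 of the 21948 windows of 120 kb, or 0.132%, and in 0.183% of those on chromosome 8. For the Sqstm1 window the shares were 0.465% over all chromosomes and 1.28% on chromosome 11. For the Gabarapl1 window they were 5.8% and, on chromosome 6, 8.43%, and for the Ulk1 window they were 7.77% and, on chromosome 5, 10.3%. Among windows with at least 1 peak, the shares with as strong a peak were 0.281% for Map1lc3b, 0.989% for Sqstm1, 12.3% for Gabarapl1 and 15.5% for Ulk1. A peak with a signal value of at least 50, present in all 4 gene windows, was present in 8.75% of windows of 120 kb and in 9.98% of those of 140 kb. A signal value of at least 100, reached in the Map1lc3b and Sqstm1 windows, was reached in 1.85% of windows of 120 kb and in 2.16% of those of 140 kb. Because loci and signal limits were picked with earlier results of these data known, none of these shares measures how unusual a locus is.

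The distance to the nearest summit was compared with that in the list. Another summit lay within 1 kb of 7 of the 19 peaks, against 16.3% of the list, and these 7 were 5 peaks of the Gabarapl1 window and the weak pair of the Ulk1 window. Within 2 kb the count was again 7, or 36.8% of the 19, against 25.8% of the list, and within 5 kb it was 9, or 47.4%, against 39.6%. Within 10 kb it was 15, or 78.9%, against 52.3%. The median distance to the nearest summit was 5450 bp for the 19 peaks and 8885 bp for all. In the Map1lc3b and Sqstm1 windows, which held the strongest peaks, no summits were closer than 2898 bp.

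Beyond the windows, the nearest summits differed in distance and strength. Below the Sqstm1 window the next summit was 171 kb away, while above it a peak with a signal value of 36.6 lay 9.22 kb from the edge, a value higher than those of the 3 weak peaks inside. Next to the Gabarapl1 window the nearest peak, 9.91 kb above the edge, had a signal value of 19.1. The nearest peak outside the Ulk1 window, 26.7 kb below it, had 13.9, and that outside the Map1lc3b window, 40.0 kb above it, was weaker still, at rank 26049. No peak within 50 kb outside any window exceeded the strongest peak inside it.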

How the data were processed

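Chromatin from MEFs was immunoprecipitated with a Foxk1 antibody (3 libraries) or IgG (3) or kept as input (2), grouped by the antibody label and, for input, by the titles. Reads were aligned with Bowtie to mm9, per the submitters' processing notes. The deposited list compares Foxk1 with input, per the file header. Read depth, the caller of the peaks with its settings and any pooling of libraries were not given in the sources used here, so no counting interval could be computed. The authors deposited a signal value per peak, a score without a stated scale, and a q-value on a linear scale. Every peak spans 460 bp around a central summit.

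From these, peaks with a summit inside the 4 windows were taken, ranked by signal value among all 28933, and set against full windows of equal width tiled from the first base of each chromosome to its highest peak end. No test was run. The genes named were the 4 members, their neighbours in RefSeq order and the listed autophagy genes. Members, lists, windows and the signal limits of 50, 100 and 200 were chosen with earlier results of these data known. Promoters came from RefSeq (GRCm38.p6), and all 4 genes matched by symbol. Protein identity between the ATG8 genes was planned and not run, as no protein sequence was used. Window counting was tested on a simulated list. Alternatives were stricter peak sets, overlap in place of summits, merging, wider and narrower windows and shifted tiling. Positions are 1-based. Computation used Python 3.11.15, numpy 2.4.6, pandas 2.3.3, scipy 1.17.1 and matplotlib 3.10.9.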

Additional observations from a re-analysis of the deposited data

How the results depend on the processing

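The highest signal value of each window was the same with any overlap in place of the summit, with windows widened by 50 kb and with windows narrowed by 25 kb on each side. Counts of peaks stayed within 1.5 times under these settings, under both stricter peak sets and with summits under 2000 bp apart merged, except in 2 windows. The Sqstm1 count, 5, was 3 in the upper 50% of peaks by signal value, 3 at a q-value of at most 0.001, 8 in the widened window and 3 in the narrowed one. The Gabarapl1 count, 6, was 3 after merging, and 9 in the widened window, which still counted as within 1.5 times. In both stricter sets the Map1lc3b count, 4, was 3 and the Ulk1 count remained 4. The Ulk1 count was 3 after merging and 5 in the widened window. The Map1lc3b count was 5 in the widened window and 3 in the narrowed one. Shifting the tiling by 0.5 of a window's width moved no share beyond its 95% binomial interval. With the upper 50% of peaks alone, 33.1% of windows of 120 kb and 35.9% of those of 140 kb held a peak. As an alternative chosen after seeing the data, only windows with at least 1 peak formed the background. The shares with at least as many peaks were then 31.3% for Ulk1, 26.9% for Map1lc3b, 17.2% for Sqstm1 and 10.7% for Gabarapl1, and those with as strong a peak 15.5%, 0.281%, 0.989% and 12.3%. No paired analysis was possible because replicates have no values of their own in the list, which also means that none could be left out in turn. A stretch without a peak had none detected at the authors' threshold and an unknown depth.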
